A study of Mus musculus with 8 samples.

Results

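A set of 10 genes of the NRF2 pathway and of the antioxidant system it drives were followed in mouse plasmablasts that had lost Jagn1. They were chosen by name as the sensor and regulator genes Nfe2l2, Keap1 and Sqstm1 and the target genes Hmox1, Nqo1, Txnrd1, Srxn1, Prdx1, Txn1 and Osgin1, and all 10 were found among the 24413 gene symbols of the files. The tested group was 4 Jagn1 knockout libraries, from C57BL/6J mice with the genotype Jagn1fl/fl Mb1Cre+, where Mb1Cre places the Cre recombinase under the Cd79a locus, active from early B cell stages onward. The control group was 4 libraries from C57BL/6J mice with the genotype Jagn1fl/fl, for which no Cre is listed. Splenic B220+ B cells of both groups received 25 µg/ml lipopolysaccharide for 4 days in medium that held 50 µM 2-mercaptoethanol, a thiol reducing agent, and CD22-CD138+ plasmablasts were sorted. Loss of Jagn1 and presence of the Cre cannot be told apart in this design, since no library carried the Cre with intact Jagn1.

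NRF2, the protein of Nfe2l2, is a transcription factor that is made and degraded all the time in unstressed cells. KEAP1 holds it for ubiquitination by a CUL3 ligase, and oxidants and electrophiles that modify cysteines of KEAP1 stop this, as does the autophagy receptor p62, the protein of Sqstm1, which binds KEAP1 in place of NRF2. Stabilized NRF2 pairs with a small MAF protein on antioxidant response elements of genes for heme breakdown, quinone reduction, glutathione synthesis and the thioredoxin system. Since this control acts on the protein, the mRNA level of Nfe2l2 or Keap1 does not report NRF2 activity. In antibody-secreting cells, disulfide bond formation in the endoplasmic reticulum produces hydrogen peroxide, so peroxide-removing enzymes are part of their usual equipment.

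Libraries held 5882912 to 10066661 counts of 3′ end tags. CPM below is the count scaled to a common library size by the TMM method, and since each transcript end gives a tag, no division by gene length applies. Knockout replicates 1 to 4 held 2, 1, 1 and 1 counts of Jagn1 itself and control replicates 1 to 4 held 19, 35, 16 and 99, so no library went against its label, although which exons the allele loses is not stated in the labels. Control replicates 1 and 4 stood apart, since their log2 profiles deviated from their group's mean profile by 0.594 and 0.581 (root mean square), and those of the remaining 6 libraries by 0.324 to 0.432. Cd79a, the locus of the Cre, averaged 148 ± 23.5 CPM in the knockout and 304 ± 77.6 CPM in the control (SD, n = 4 each), with an edgeR adjusted p of 0.00313. Plasmablast markers were abundant, with 10 summed markers at 21232 to 27298 CPM in knockout libraries and 27440 to 34517 CPM in control libraries. Sdc1, which encodes the sort marker CD138, lay at 16.8 to 23.3 CPM in knockout and 33.03 to 56.7 CPM in control libraries, and Cd22, whose protein was sorted against, at 4.72 to 8.86 CPM in knockout and 2.53 to 10.8 CPM in control libraries. Of the 10 plasmablast markers 5 were lower in the knockout and 0 were higher (edgeR). Of 12 macrophage and monocyte markers, Lyz2, Cd14, C1qb and C1qc were at 0 in every library, and the 12 summed to 3.63 to 8.63 CPM in knockout and 6.12 to 14.9 CPM in control libraries. All 7 neutrophil markers analysed were at 0 in every library, and 7 erythroid markers summed to at most 0.262 CPM in knockout and 0.876 CPM in control libraries. Of 9 T and NK cell markers, Ncr1 was at 0 in every library, and the 9 summed to 10.4 to 13.7 CPM in knockout and 13.5 to 20.9 CPM in control libraries. Of 6 dendritic cell markers none was at 0 in every library, and they summed to 63.7 to 97.2 CPM in knockout and 65.6 to 108 CPM in control libraries, mostly through Xcr1. In bulk RNA, fewer cells that express a gene and less of its RNA per cell cannot be told apart.

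Promoter windows were read for 9 members, all but Hmox1, from RefSeq (GRCm38.p6), as the 250 bases before each start, with 11 windows in all. The 5 shown were picked because they belong to Sqstm1 and Srxn1, which were called higher in the knockout, and to Txnrd1, Prdx1 and Nfe2l2, whose windows hold the core of the antioxidant response element, TGACNNNGC, searched on both strands. Capitals mark that core, and bases that GENCODE M21 counts as exon are left off the right-hand end.
Sqstm1 promoter, chr11:50210828-50211070, minus strand: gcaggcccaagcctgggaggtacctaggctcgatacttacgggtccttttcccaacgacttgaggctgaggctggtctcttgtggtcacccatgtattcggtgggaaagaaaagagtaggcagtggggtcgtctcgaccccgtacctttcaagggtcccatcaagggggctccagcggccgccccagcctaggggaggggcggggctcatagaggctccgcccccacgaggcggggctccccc
Srxn1 promoter, chr2:152105274-152105515, plus strand: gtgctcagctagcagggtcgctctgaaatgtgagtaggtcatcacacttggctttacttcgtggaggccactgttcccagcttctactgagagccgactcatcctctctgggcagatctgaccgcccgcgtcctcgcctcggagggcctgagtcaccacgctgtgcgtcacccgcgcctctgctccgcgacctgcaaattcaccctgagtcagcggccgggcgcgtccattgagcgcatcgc
Txnrd1 promoter, chr10:82858956-82859178, plus strand: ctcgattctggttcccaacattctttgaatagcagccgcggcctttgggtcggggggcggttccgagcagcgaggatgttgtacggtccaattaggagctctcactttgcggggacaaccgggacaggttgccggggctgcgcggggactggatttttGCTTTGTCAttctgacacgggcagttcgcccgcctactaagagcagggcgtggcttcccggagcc
Prdx1 promoter, chr4:116685349-116685543, plus strand: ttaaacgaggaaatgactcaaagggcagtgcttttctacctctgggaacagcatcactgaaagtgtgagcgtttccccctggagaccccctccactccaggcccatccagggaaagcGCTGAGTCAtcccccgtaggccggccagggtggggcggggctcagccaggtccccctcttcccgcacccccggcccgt
Nfe2l2 promoter, chr2:75704664-75704913, minus strand: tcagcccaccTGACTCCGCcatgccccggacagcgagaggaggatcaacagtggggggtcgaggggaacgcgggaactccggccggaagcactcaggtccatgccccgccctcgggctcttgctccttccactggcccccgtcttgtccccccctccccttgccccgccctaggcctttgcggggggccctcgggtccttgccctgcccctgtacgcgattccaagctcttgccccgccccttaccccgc
The core lay 133 to 125 bases before the start in Prdx1, 92 to 84 bases before the second of 3 starts in Txnrd1, and 240 to 232 bases before the start in Nfe2l2. These were 3 of the 11 windows, and 10.2% of 32851 RefSeq windows of the same length hold the core. The windows of Sqstm1 and Srxn1 did not hold these letters, and none of the 11 held the heat shock element GAANNTTC (6.69% of all windows) or the C/EBP-ATF response element TGATGNAAN (3.44% of all windows) on either strand. A match is a description of letters. Other spellings of the antioxidant response element were not searched, in the Srxn1 and Sqstm1 windows or elsewhere, nor were more distant elements.

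Jagn1 knockout plasmablasts had several-fold more mRNA for p62 and for heme oxygenase 1, while NRF2 and KEAP1 mRNA and the abundant peroxiredoxin 1 and thioredoxin 1 mRNA did not pass the test. Of the 10 genes, 9 had enough counts for edgeR's quasi-likelihood test across 9904 genes, and Nqo1 did not. At a Benjamini-Hochberg adjusted p under 0.05, 3 of the 9 were higher in the knockout and 0 were lower, with 4 and 0 at an unadjusted p under 0.05, 3 and 0 in DESeq2, and 4 and 0 in limma-voom. Of the 9904 genes, 1785 had an unadjusted p under 0.05, and limma-voom called 1054 in either direction. DESeq2, which was run without edgeR's count filter and so on more genes, called 815 in either direction. Over all genes tested in edgeR, 2.54% were called higher and 3.19% lower, 5.74% in all. The sulfiredoxin gene Srxn1, the remaining call, entered the test through its knockout libraries alone and lost its call under 6 of 18 alternatives, so the count over the 9 is a description. In 3 of the 9 genes every knockout library lay above every control library, an arrangement found in 6.45% of all genes tested. In 0 of the 9 every knockout library lay below, as in 6.64% of all genes. Srxn1 is among these 3, and its separation came with its entry to the test, so this count is a description too.

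**Figure D1:**
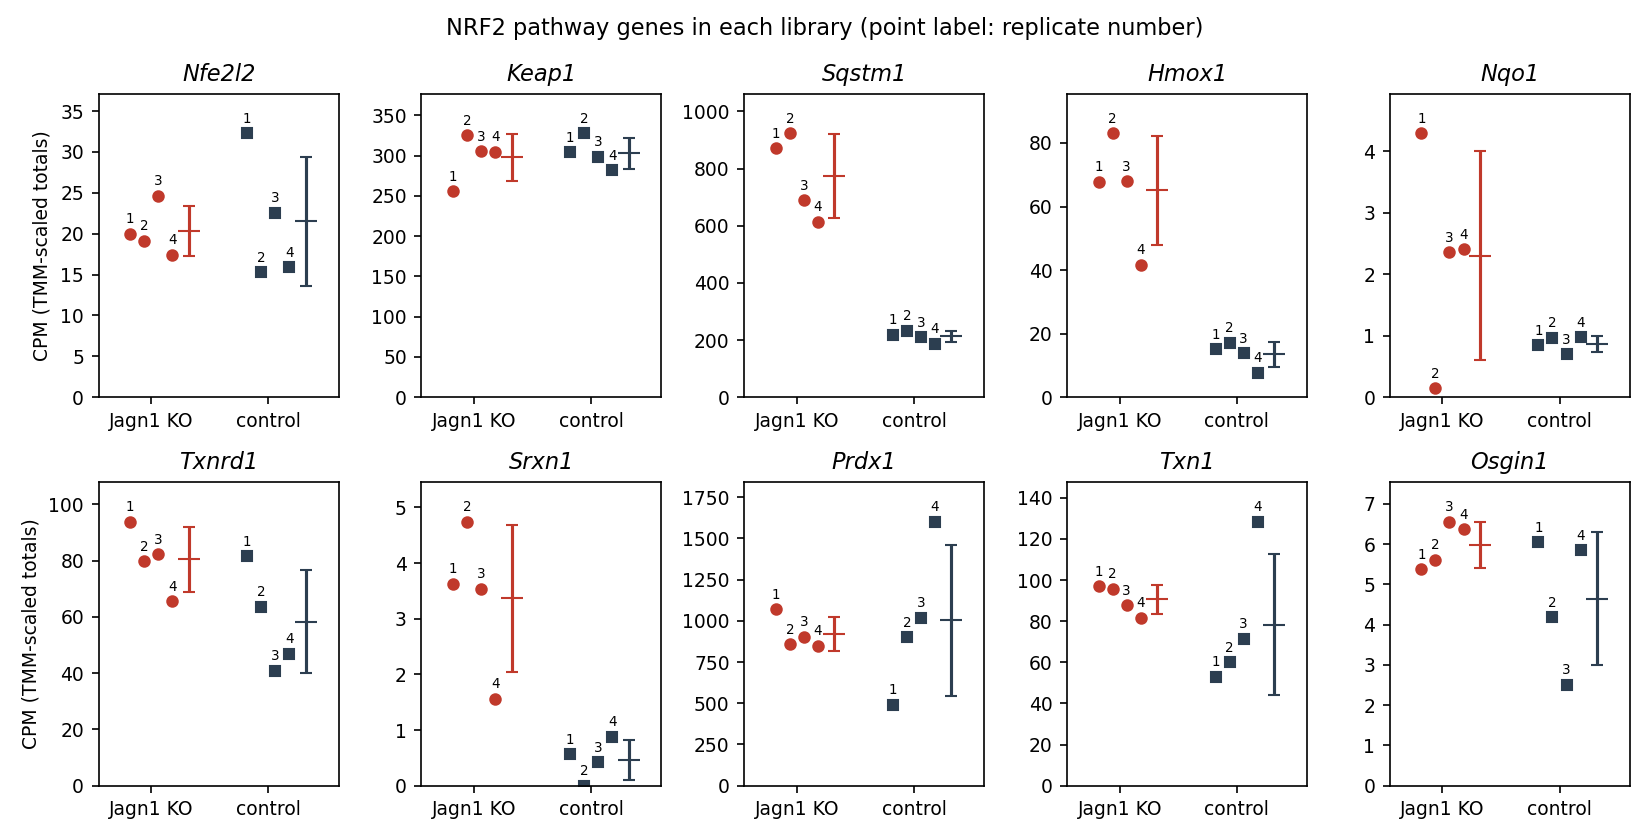
CPM of each of the 10 genes in 4 Jagn1 knockout libraries (circles) and 4 control libraries (squares), each on its own linear axis from 0, with the mean and SD beside the points and the replicate number above each point. Sqstm1, Hmox1 and Srxn1 show no overlap between groups, while Prdx1 and Txn1 are spread widely among the controls, with control replicate 4 at the top.

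Nfe2l2 (chromosome 2, 75675513 to 75704641, minus strand, GRCm38, protein-coding, 5 exons in its longest model) stood at 20.01, 19.1, 24.7 and 17.4 CPM in knockout replicates 1 to 4, against 32.3, 15.3, 22.6 and 15.9 CPM in control replicates 1 to 4. The groups overlapped, and control replicate 1 was the highest library. The fitted log2 fold change was -0.08 ± 0.25 (SE, edgeR adjusted p = 0.914), with a 95% interval of 0.651 to 1.37 for the fold. Without control replicate 1 the fitted value was 0.18.

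Keap1 (chromosome 9, 21229730 to 21239361, minus strand, 6 exons), which encodes the adaptor that presents NRF2 for degradation, had the lowest coefficient of variation of the 10 among the controls. It gave 256, 325, 306 and 305 CPM in knockout replicates 1 to 4 and 304, 328, 299 and 282 CPM in control replicates 1 to 4. That coefficient was 9.91% among knockout and 6.31% among control libraries. On the log2 scale the fitted change was -0.02 ± 0.13 (SE, edgeR adjusted p = 0.953), and the 95% interval of the fold ran from 0.809 to 1.19.

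Sqstm1 (chromosome 11, 50199366 to 50210827, minus strand, 8 exons), the gene of the autophagy receptor p62 that can hold KEAP1 and is itself an NRF2 target, rose in the knockout. It stood at 871, 924, 689 and 614 CPM in knockout replicates 1 to 4, against 218, 233, 211 and 187 CPM in control replicates 1 to 4. Every knockout library was above every control library, and the mean was 775 ± 147 CPM in the knockout and 212 ± 19.1 CPM in the control (SD, n = 4 each). The log2 fold change was 1.87 ± 0.16 (SE, edgeR adjusted p = 8.82e-06), a 3.65-fold difference with a 95% interval of 2.89 to 4.61, and its p ranked 5 among the 9904 genes. Across all 18 alternatives the log2 fold change stayed between 1.77 and 1.96. Counts per Keap1 count, which need no scaling between libraries, separated the groups as well. Knockout replicates 1 to 4 held 3.40, 2.84, 2.25 and 2.02 Sqstm1 counts per Keap1 count, and control replicates 1 to 4 held 0.718, 0.711, 0.705 and 0.665.

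Among the targets, Hmox1 (chromosome 8, 75093621 to 75100589, plus strand, 5 exons), the inducible enzyme that splits heme into biliverdin, iron and carbon monoxide, rose as well. It stood at 67.8, 83.1, 67.9 and 41.7 CPM in knockout replicates 1 to 4, against 15.2, 17.1, 13.8 and 7.69 CPM in control replicates 1 to 4. The groups did not overlap, and replicate 4 was the lowest in both. Its log2 fold change was 2.29 ± 0.26 (SE, edgeR adjusted p = 9.75e-05), a 4.88-fold difference with a 95% interval of 3.31 to 7.19. It was 2.07 to 2.45 over the 18 alternatives, and the largest adjusted p was 0.00119. Macrophages also express Hmox1 at high levels, and the summed levels of macrophage and red cell markers are given above. The macrophage and monocyte markers did not share a direction. Csf1r had 4, 22, 14 and 10 counts in the knockout and 15, 3, 7 and 2 in the control. Cd68 had 4, 2, 7 and 6 counts in the knockout and 27, 3, 6 and 33 in the control. Ly6c2 had 16, 19, 23 and 24 counts in the knockout and 27, 18, 71 and 93 in the control. Csf1r, Cd68 and Ly6c2 were picked for mention later. Lyz2, Cd14, Alas2 and the 4 globin genes were at 0 in every library. The part of other cell types in the Hmox1 difference was not tested. Per Keap1 count the knockout libraries held 0.137 to 0.265 Hmox1 counts and the control libraries 0.0273 to 0.0521.

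Srxn1 (chromosome 2, 152105516 to 152111376, plus strand, 2 exons) encodes sulfiredoxin 1, which restores over-oxidized peroxiredoxins. Its reads were few. Knockout replicates 1 to 4 held 27, 33, 27 and 13 counts and control replicates 1 to 4 held 4, 0, 3 and 9. In CPM these were 3.63, 4.74, 3.54 and 1.56 in the knockout against 0.562, 0, 0.418 and 0.876 in the control, and 0 counts in control replicate 2 allow up to 0.483 CPM at a floor of 3 counts. The groups did not overlap, and knockout replicate 4 came nearest to the controls. All 4 knockout libraries and 0 control libraries reached the level that the count filter asks for, so a tested Srxn1 had to differ, and the fitted values are given as a description. Its log2 fold change was 2.74 ± 0.72 (SE, edgeR adjusted p = 0.0365), with a fold interval of 2.29 to 19.4. The call was lost without knockout replicate 1, 2 or 3 or control replicate 2 or 3 (adjusted p up to 0.163), while the fitted value stayed between 2.38 and 3.83.

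Nqo1 (chromosome 8, 107388225 to 107403206, minus strand, 6 exons), a quinone reductase gene that is often used as a readout of NRF2, was too low for the test. Knockout replicates 1 to 4 held 32, 1, 18 and 20 counts and control replicates 1 to 4 held 6, 6, 5 and 10. Knockout replicates 1, 3 and 4 were above every control library and knockout replicate 2 was below every one. On CPM, 2.30 ± 1.698 in the knockout and 0.870 ± 0.130 in the control (SD, n = 4 each), the exact two-sided permutation p was 0.143, where 0.0286 is the smallest that 4 against 4 allows. With knockout replicate 2 left out, the groups no longer overlap. The exact permutation p is then fixed at 0.0286, the smallest that the 35 arrangements left allow, so it does not test the difference. With no filter on low counts edgeR gave a log2 fold change of 1.39 ± 0.80 (SE, adjusted p = 0.415).

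Txnrd1 (chromosome 10, 82833951 to 82897712, plus strand, 15 exons), the cytosolic selenoenzyme that reduces thioredoxin with NADPH, had a smaller difference. It stood at 93.9, 79.8, 82.4 and 65.7 CPM in knockout replicates 1 to 4, against 81.5, 63.6, 40.8 and 46.9 CPM in control replicates 1 to 4. The groups overlapped through control replicate 1, which lay above knockout replicates 2 and 4. The fitted log2 difference was 0.47 ± 0.21 (SE, edgeR adjusted p = 0.244), with a fold interval of 1.02 to 1.88. It passed without control replicate 1 (0.68, adjusted p = 0.0225), without control replicates 1 and 4 (0.63, adjusted p = 0.0365) and in limma-voom with sample weights (0.61, adjusted p = 0.0274).

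Txn1 (chromosome 4, 57943373 to 57956411, minus strand, 5 exons) encodes thioredoxin 1, the small dithiol protein that Txnrd1 keeps reduced. It stood at 96.9, 95.9, 87.9 and 81.8 CPM in knockout replicates 1 to 4, against 53.0, 60.1, 71.4 and 128 CPM in control replicates 1 to 4. All knockout libraries lay above control replicates 1, 2 and 3 and below control replicate 4. edgeR fitted a log2 fold change of 0.21 ± 0.23 (SE, edgeR adjusted p = 0.708), with a fold interval of 0.822 to 1.62, and without control replicate 4 it was 0.55 (adjusted p = 0.0378). One processed pseudogene transcript, Txn-ps1, matches Txn1 over 309 bases at 95.8% identity, so part of the assignment of its reads is uncertain.

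Prdx1 (chromosome 4, 116685544 to 116700822, plus strand, 6 exons in its longest model), which encodes a thioredoxin-dependent peroxidase, had the highest tag level of the 10. It stood at 1071, 856, 903 and 849 CPM in knockout replicates 1 to 4, against 491, 901, 1019 and 1602 CPM in control replicates 1 to 4. The knockout values lay inside the range of the control values. The log2 fold change was -0.13 ± 0.26 (SE, edgeR adjusted p = 0.862), with a fold interval of 0.628 to 1.34, and it was 0.18 without control replicate 4. A pair of processed pseudogene transcripts match Prdx1 over 597 bases at 98.3% and 97.5% identity, so its counts are uncertain to that extent.

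Osgin1 (chromosome 8, 119434124 to 119446256, plus strand, 6 exons), an oxidative stress-induced growth inhibitor gene, was low in all libraries. It stood at 5.37, 5.61, 6.56 and 6.37 CPM in knockout replicates 1 to 4, against 6.04, 4.19, 2.51 and 5.84 CPM in control replicates 1 to 4. The groups overlapped, with a log2 fold change of 0.36 ± 0.36 (SE, edgeR adjusted p = 0.671) and a fold interval of 0.755 to 2.17.

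**Figure D2:**
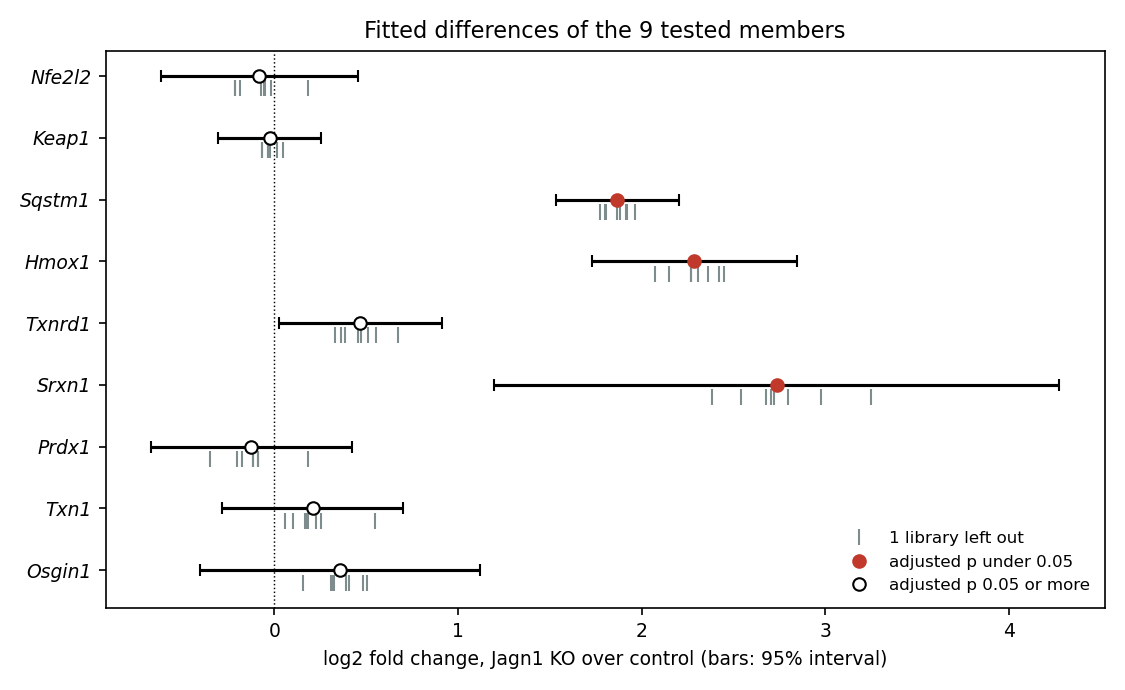
Fitted log2 fold change of knockout over control for the 9 tested genes, with its 95% interval as a bar, filled where the adjusted p is under 0.05, and with grey ticks for the value after leaving out each library in turn. Sqstm1 at 1.87, Hmox1 at 2.29 and Srxn1 at 2.74 lie away from 0, and the ticks of Nfe2l2, Keap1 and Prdx1 fall on both sides of 0.

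The genes differed in how steady they were among the controls. The coefficient of variation among control libraries was 45.7% for Prdx1 and 43.9% for Txn1, and among knockout libraries it was 11.3% and 7.90%. Both genes had the same order among the controls, lowest in replicate 1 at 0.489 and 0.677 times the control mean and highest in replicate 4 at 1.597 and 1.64 times. Nfe2l2 and Txnrd1 were instead highest in control replicate 1, at 1.502 and 1.40 times the control mean. Hmox1 was lowest in replicate 4 of both groups, at 0.640 times its knockout mean and 0.573 times its control mean.

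**Figure D3:**
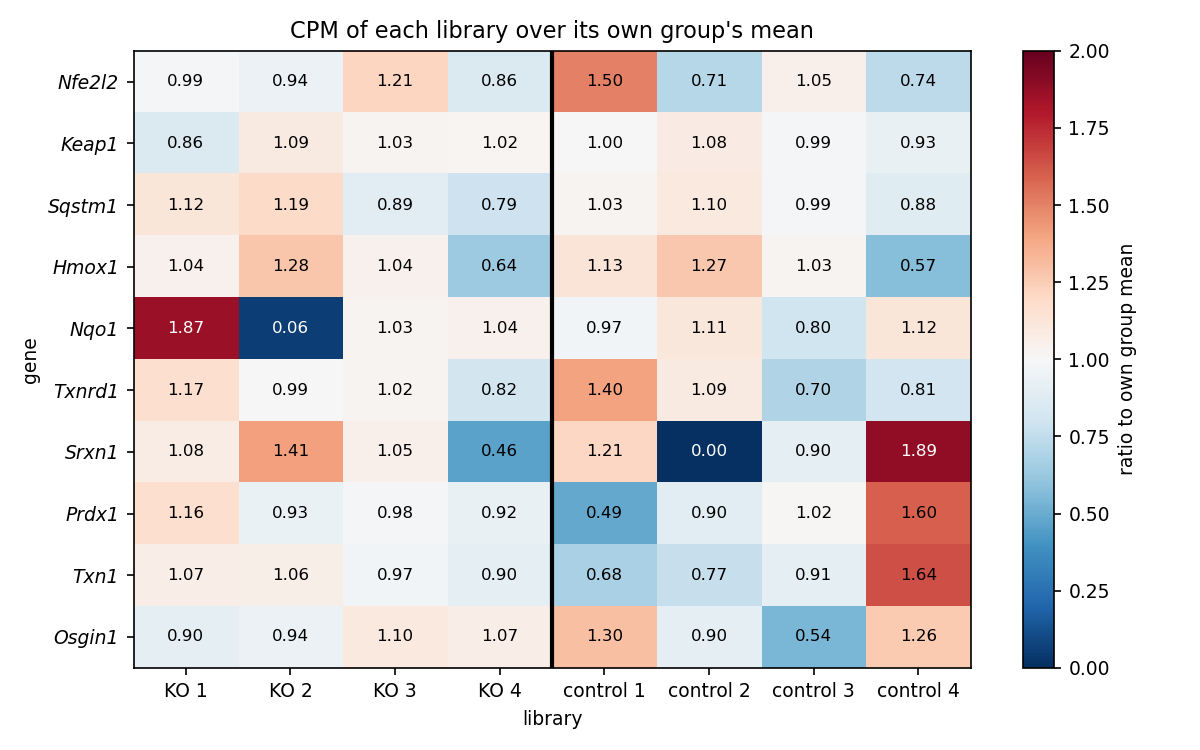
CPM of each gene in each library divided by the mean of its own group, so that 1 is the group mean, with knockout libraries left of the line and control libraries right of it. Control replicate 4 is high for Srxn1, Prdx1 and Txn1 and low for Nfe2l2 and Hmox1, and knockout replicate 2 is near 0 for Nqo1.

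Genes that act on NRF2 or share its partners were then counted in the same test. For this list and those below, the shares over all genes tested in edgeR were 2.54% higher and 3.19% lower. At an unadjusted p under 0.05 there were 1785 of 9904. Of 16 listed, 13 were tested, 2 were higher and 0 were lower (2 and 1 at an unadjusted p under 0.05, 2 and 0 in DESeq2, 3 and 0 in limma-voom). The median log2 fold change was 0.22, against -0.01 over all genes tested. Nfe2l1, a related factor that is anchored in the endoplasmic reticulum and drives proteasome genes, stood at 198, 190, 187 and 171 CPM in knockout replicates 1 to 4, against 84.1, 98.6, 98.2 and 107 CPM in control replicates 1 to 4. Its log2 fold change was 0.94 ± 0.14 (SE, edgeR adjusted p = 0.000566), and its groups did not overlap. Mafg, a small MAF partner of NRF2, stood at 199 ± 10.8 CPM in the knockout and 129 ± 27.0 CPM in the control (SD, n = 4 each), and edgeR fitted a log2 difference of 0.62 ± 0.16 (SE, edgeR adjusted p = 0.0304). The call of Mafg was lost without any 1 knockout replicate, without control replicate 3 (adjusted p up to 0.0967), and without control replicates 1 and 4 (0.0615). The gene with a value below 0 at the unadjusted level was Bach2, a repressor of plasma cell fate, at -0.58 ± 0.26 on the log2 scale (SE, edgeR adjusted p = 0.249), chosen for mention after its value was seen. It passed when control replicate 1 was left out, alone or with control replicate 4.

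Among other known NRF2 targets, Slc7a11 and Gclm were higher. Of 32 listed genes 19 were tested, 2 were higher and 0 were lower (4 and 3 at an unadjusted p under 0.05, 3 and 1 in DESeq2 and in limma-voom), with a median log2 fold change of 0.17. Slc7a11, the cystine importer, stood at 40.4, 33.4, 25.1 and 30.7 CPM in knockout replicates 1 to 4, against 1.12, 5.64, 3.76 and 4.48 CPM in control replicates 1 to 4. The groups did not overlap, and the log2 fold change was 3.10 ± 0.35 (SE, edgeR adjusted p = 7.27e-05). Gclm, the modifier subunit of the enzyme that starts glutathione synthesis, stood at 25.4 ± 3.12 CPM in the knockout and 12.5 ± 3.87 CPM in the control (SD, n = 4 each), and the fitted log2 difference was 1.02 ± 0.25 (SE, edgeR adjusted p = 0.0250). Its call was lost without knockout replicate 1, 2 or 3 or control replicate 2 (adjusted p up to 0.103). The remaining 13 listed genes, among them the glutathione transferase genes Gsta1 to Gsta4, Gstm1 and Gstp1, fell below the count filter. At an unadjusted p under 0.05 the 4 above 0 were Slc7a11, Gclm, Ftl1 and Me1. The 3 below 0 were Tkt (-0.48 ± 0.15), Idh1 (-1.04 ± 0.47) and Blvrb (-1.53 ± 0.68, log2 fold change and SE). Tkt was the gene called lower in DESeq2 and in limma-voom, and Ftl1 was the added higher call in both (edgeR adjusted p = 0.0841 and 0.0720).

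The other members of the thioredoxin and peroxiredoxin families gave no call. Of 20 listed genes 18 were tested, with 0 higher and 0 lower in edgeR and in DESeq2, 1 at an unadjusted p under 0.05 and 1 higher in limma-voom. The gene called in limma-voom is Txnip, the thioredoxin-interacting protein gene, chosen for mention after its value was seen. In edgeR its log2 fold change was 0.24 ± 0.41 (SE, edgeR adjusted p = 0.826). Txnip stood at 24.7, 38.0, 36.6 and 134 CPM in control replicates 1 to 4 and at 63.0 to 76.3 CPM in the knockout. It was called higher when control replicate 4 was left out, alone or with control replicate 1. Over the list, the median log2 fold change was 0.24, with 14 of 18 fitted values above 0, against 4827 of 9904 over all genes tested. The smallest p values were those of Prdx6, a peroxidase that uses glutathione, with a log2 fold change of 0.43 ± 0.15, and of the selenoprotein methionine sulfoxide reductase gene Msrb1, with 0.36 ± 0.18 (SE, edgeR adjusted p = 0.128 and 0.319). Prdx6 passed without control replicate 1 (0.49, adjusted p = 0.0494).

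Among 14 tested genes of other antioxidant enzymes, of 17 listed, 1 was higher and 1 was lower (3 and 2 at an unadjusted p under 0.05, 3 and 1 in DESeq2 for these 14, 2 and 1 in limma-voom), with a median of 0.06. Gpx1, the main cytosolic glutathione peroxidase, fell to 351, 265, 270 and 303 CPM in knockout replicates 1 to 4, against 454, 674, 611 and 596 CPM in control replicates 1 to 4. Its groups did not overlap, and the log2 fold change was -0.97 ± 0.15 (SE, edgeR adjusted p = 0.00116). Gpx3, a secreted glutathione peroxidase, stood at 17.6 ± 5.20 CPM in the knockout and 9.07 ± 0.775 CPM in the control (SD, n = 4 each), and the fitted log2 difference was 0.96 ± 0.26 (SE, edgeR adjusted p = 0.0397). The call of Gpx3 was lost without any 1 knockout replicate, without control replicate 2 or 3 (adjusted p up to 0.1798).

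The partners of heme oxygenase and of p62 gave no call. Of 10 tested genes of heme and iron handling, of 12 analysed, 0 were higher and 0 lower in edgeR, DESeq2 and limma-voom, with 1 at an unadjusted p under 0.05 and a median of -0.16. Blvra, the biliverdin reductase that acts after heme oxygenase, had a log2 fold change of -0.38 ± 0.21, and the mitochondrial iron importer gene Slc25a37 had -0.49 ± 0.21 (SE, edgeR adjusted p = 0.361 and 0.228). Slc25a37 passed without control replicate 4 (-0.66, adjusted p = 0.0243). Of 10 tested autophagy receptor and LC3 family genes, of 11 listed, 0 were higher and 0 lower in edgeR and in DESeq2, and 1, Map1lc3b, was higher in limma-voom. At an unadjusted p under 0.05 there were 4, all with values above 0, against 1785 of 9904 over all genes tested, and the median was 0.38. Tax1bp1, another cargo receptor, had a log2 fold change of 0.39 ± 0.13 and Map1lc3b, which encodes an LC3 protein that p62 binds, 0.35 ± 0.13 (SE, edgeR adjusted p = 0.121 and 0.145).

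**Figure D4:**
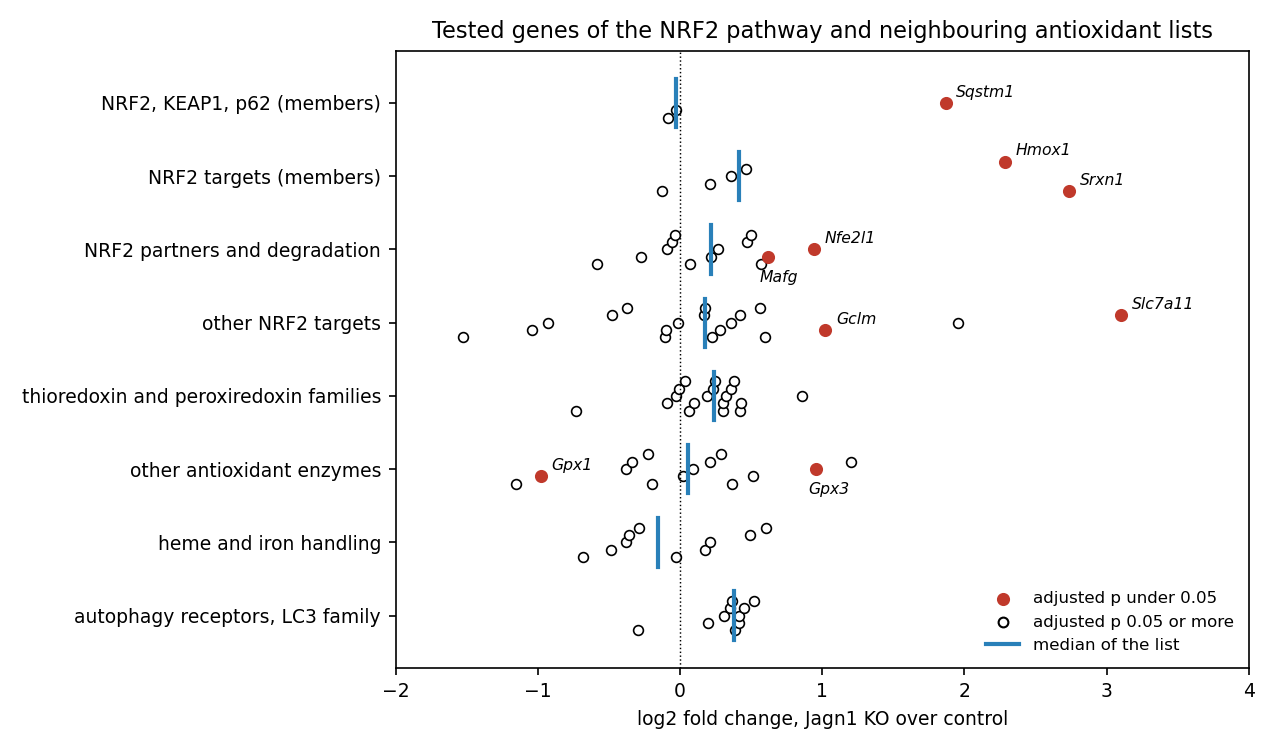
Log2 fold change of knockout over control for every tested gene of the 10 members and of the 6 neighbouring lists, filled and named where the adjusted p is under 0.05, with a blue bar at each list's median. Of the filled points, Sqstm1, Hmox1, Srxn1 and Slc7a11 lie beyond 1.5, and Gpx1 is the single one below 0. Among the open points, Me1 lies at 1.95 and Blvrb at -1.53, both picked after their values were seen and both low in counts. Me1 held 74 counts over the knockout libraries and 21 over the control libraries, and Blvrb held 29 and 90.

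Likeness of pattern was measured as the root mean square distance between mean-centred log2 CPM profiles over the 8 libraries. The tested genes nearest to Sqstm1 were Chac1, a glutathione-degrading enzyme gene (0.214), Ccrl2 (0.232) and Fam129a (0.240). Those nearest to Nfe2l2 were Creb1 (0.0884), Cep135 (0.108) and Wdr12 (0.121). Chac1 stood at 139, 165, 133 and 143 CPM in knockout replicates 1 to 4, against 43.5, 62.5, 42.5 and 38.6 CPM in control replicates 1 to 4, so that, as for Sqstm1, no knockout library overlapped a control library and replicate 2 was highest in both groups. Creb1 spanned 45.9 to 59.2 CPM in the knockout and 39.2 to 77.7 CPM in the control, where the highest library was replicate 1, as for Nfe2l2. Chac1 and Creb1 were picked by their distance over these same 8 libraries, so such likenesses follow from the choice.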

How the data were processed

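Each deposited file holds raw read counts per gene symbol for 1 library, made by the authors from QuantSeq 3′ mRNA-Seq (FWD) libraries of 500 ng total RNA, per the labels' protocols. TopHat2 2.1.1, BWA 0.7.12, HTSeq 0.6.1, SAMtools 1.3.1 and build mm10 are listed in the submitters' processing notes, with no role or order. Which annotation and which strand option were used for counting is not given in the labels. The 10 genes, the gene lists and the tests were chosen with earlier results of these data known.

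Genes were filtered with filterByExpr (minimum count 10, minimum total 15; 9904 of 24413 symbols kept), scaled with TMM factors and tested with edgeR 4.0.16 (R 4.3.3), quasi-likelihood F-test with robust estimation, group as the only term, two-sided, Benjamini-Hochberg adjustment over all genes tested and a threshold of 0.05. Standard errors are the log2 fold change over the square root of F, and log2 CPM used a prior count of 2. Named genes are the 10 members, Jagn1, Cd79a, up to 4 called genes with the smallest p from each list, or 2 where none was called, and the 3 nearest profiles of Nfe2l2 and Sqstm1. Cell type markers come from the marker lists, and genes below the count filter or that overlap or resemble a member are named as such. Bach2, Txnip, Csf1r, Cd68, Ly6c2, Me1, Blvrb, Ftl1, Tkt and Idh1 were picked later. Alternatives were DESeq2 1.42.0, limma-voom (limma 3.58.1) with sample weights, other scalings, filters and fits, a replicate block, and libraries left out, 18 in all. The edgeR steps were tested on simulated counts. Within groups, every pair of libraries differed by more than sampling noise (chi-square per degree of freedom 6.60 to 94.2). The series text gives 4 mice per genotype, and the 4 libraries of a group were taken as separate mice, although no label ties a library to an animal. Counts carry no stated molecular identifiers, and floors cover counting error only. Positions are from GENCODE M21 (GRCm38, the mm10 build). Exons of Sqstm1 share 580 bases with Mrnip and those of Keap1 510 bases with Gm16754, each on the opposite strand. Flvcr1 and Ly6g were not analysed here, nor were protein sequences.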

Additional observations from a re-analysis of the deposited data

Results flagged for a closer look

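Jagn1 in knockout replicate 1, at 0.269 CPM or 2 counts, lay apart from the other knockout libraries, which were at 0.1202 to 0.144 CPM or 1 count each. Over the 54 groups of 4 libraries examined, chance flags about 1 in 20 in this way, and no library of the 10 NRF2 pathway genes was so flagged.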

How the results depend on the processing

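Sqstm1 and Hmox1 kept their direction and their call under all 18 alternatives. The count of all genes called was 568, and it was 1054 with limma-voom, 901 without control replicates 1 and 4, and 270 to 892 when 1 library was left out, lowest without knockout replicate 2 and highest without control replicate 4. The count of higher members ran from 2 to 4 and that of lower members stayed at 0. Signs turned for genes near 0 that did not pass under any alternative. Nfe2l2 ran from -0.22 to 0.18 with 1 library left out, highest without control replicate 1, and was at 0.064 with limma-voom and 0.099 without control replicates 1 and 4. Keap1 ran from -0.069 to 0.044 (above 0 without knockout replicate 1 and, at 0.015, without control replicate 2), and Prdx1 from -0.35 to 0.18 (above 0 without control replicate 4). The cause was not tested. The scaling alternatives moved the median log2 fold change of all genes to between -0.04 and -0.01. Whether the replicate numbers shared by the titles pair the libraries was not settled by the counts. Correlations over genes of same-numbered deviations were 0.0438, -0.00342, 0.0422 and 0.0662. Those of unlike numbers ran from -0.117 to 0.0687, and not every library correlated best with its own number. With the replicate block 509 genes were called, 2 of the members among them, and the adjusted p was 0.0891 for Srxn1 and 0.0823 for Gpx3. Nqo1 and Srxn1 rest on at most 33 counts in a library, and a count of 0, as for Srxn1 in control replicate 2, allows 0.483 CPM there.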
